A study of Mus musculus with 4 samples.

Results

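Tinagl1, Adgrg1, Cyp39a1, Fam171a2, Pls1, Ikzf2 and Reps2 are 7 of the 39056 genes in the count table of 4 mouse lung RNA-seq libraries, selected on their reads, which were among the most increased in the libraries labelled 8 h and 16 h of LPS against the library labelled no LPS. The genes were thus chosen by their 8 h, 16 h and no LPS values, whose size is a description here and not a finding. The 20 h library played no part in the choice.

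The 4 libraries were a no LPS library and libraries labelled 8 h, 16 h and 20 h of LPS (lipopolysaccharide, a bacterial cell wall component that triggers acute lung inflammation), given into the peritoneum at 10 mg/kg. All came from lungs of S1PR1-GFP reporter mice, which report expression of the sphingosine 1-phosphate receptor S1PR1, and from cells sorted as GFP+, CD31+ and CD45-, described as S1PR1+ endothelial cells. The study's title concerns these cells and the restoration of lung vessel integrity. The labels give no strain, sex or age, no number of animals per library, and no statement of how the GFP reporter was built. Each group is 1 library, so no difference between conditions can be tested, and every comparison below is between libraries.

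The 7 genes act in different places in the cell. Tinagl1 encodes a secreted matrix glycoprotein related to cathepsin B but without protease activity. Adgrg1 (GPR56) is an adhesion G protein-coupled receptor that binds collagen III. Fam171a2 encodes a membrane protein of the small FAM171 family. Cyp39a1 is a cytochrome P450 hydroxylase that acts on oxysterols on the way to bile acids, known best from liver. Pls1 (I-plastin, or fimbrin) bundles actin filaments in the microvilli of the gut and the stereocilia of the inner ear. Reps2 (POB1) is an EH domain protein that takes part in receptor endocytosis. Ikzf2 (Helios) is a zinc finger transcription factor of the Ikaros family, known best from regulatory T cells.

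Totals were 28060685, 28905776, 27843147 and 27566454 reads in the no LPS, 8 h, 16 h and 20 h libraries. The libraries fell into pairs: the median chi-square of a gene's 2 counts was 0.634 between 16 h and 8 h and 1.19 between 20 h and no LPS, but 11.3 to 11.9 in the other 4 pairings. The labelled cell type was not borne out by its defining markers. Of 14 endothelial markers 1 was measured, meaning a level of at least 1 CPM (the reads of a gene scaled to a common library size) in at least 1 library, and their summed level was 4.88, 5.75, 5.59 and 4.98 CPM in the no LPS, 8 h, 16 h and 20 h libraries. The measured marker was Egfl7, which made up most of that sum, with 3.08, 4.28, 4.19 and 3.36 CPM in the same order. Against no LPS it was 1.39-fold higher at 8 h (95% counting interval 1.05 to 1.85) and 1.36-fold higher at 16 h (1.02 to 1.82). Erg, Emcn, Cldn5 and Sox17 had 0 reads in all 4 libraries. Pecam1, which encodes CD31, had 7, 2, 2 and 1 reads in the same order. S1pr1 had 27, 87, 79 and 29 reads. The mesenchymal markers were 5 of 10 measured, at a sum of 457, 365, 376 and 464 CPM. Most of that sum came from Prrx1 (210, 209, 213 and 211 CPM) and Col3a1 (168, 81.8, 83.2 and 163 CPM). Col3a1 and Dcn (268, 85, 95 and 214 reads) were lower at 8 h and 16 h. Col1a1 had 2, 3, 4 and 0 reads, Col1a2 0, 0, 1 and 0, and Tcf21 0 in every library. The libraries are called below by their labels.

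Tinagl1 was the most abundant of the 7 genes in every library. It had 150 reads (5.31 CPM) with no LPS, 1103 (38.4 CPM) at 8 h, 1118 (40.4 CPM) at 16 h and 183 (6.61 CPM) at 20 h. The 8 h and 16 h libraries were high and close together, and the 20 h library was just above no LPS. Adgrg1 had 21 reads (0.743 CPM) with no LPS, 164 (5.71 CPM) at 8 h, 172 (6.21 CPM) at 16 h and 22 (0.794 CPM) at 20 h. It passed 1 CPM at 8 h and 16 h only. Fam171a2 had 14 reads (0.495 CPM) with no LPS, 104 (3.62 CPM) at 8 h, 89 (3.21 CPM) at 16 h and 21 (0.758 CPM) at 20 h. Cyp39a1 had 15 reads (0.531 CPM) with no LPS, 111 (3.87 CPM) at 8 h, 78 (2.82 CPM) at 16 h and 16 (0.578 CPM) at 20 h. In Cyp39a1 the 16 h count lay between the 8 h count and those of the pair of low libraries.

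Pls1 had 15 reads (0.531 CPM) with no LPS, 108 (3.76 CPM) at 8 h, 132 (4.76 CPM) at 16 h and 25 (0.903 CPM) at 20 h. Reps2 had 16 reads (0.566 CPM) with no LPS, 99 (3.45 CPM) at 8 h, 107 (3.86 CPM) at 16 h and 30 (1.08 CPM) at 20 h, the highest 20 h count after Tinagl1. Ikzf2 had 16 reads (0.566 CPM) with no LPS, 103 (3.59 CPM) at 8 h, 100 (3.61 CPM) at 16 h and 11 (0.397 CPM) at 20 h, and was the only one of the 7 with fewer CPM at 20 h than with no LPS. Summed over the 7 genes the reads were 247, 1792, 1796 and 308 in the no LPS, 8 h, 16 h and 20 h libraries. Among the measured genes these are scarce transcripts. With no LPS, Tinagl1 stood at percentile 18.6 of the measured genes by CPM, and the other 6 at percentiles 0.754 to 1.78. The measured set leaves out genes under 1 CPM in every library. A gene under 1 CPM with no LPS must therefore rank low in it. In the no LPS library 18530 genes had a read and 11363 reached 1 CPM. At 8 h Tinagl1 reached percentile 51.8, and the other 6 reached 14.7 to 19.2. The median measured gene had 35.5 CPM with no LPS.

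**Figure D1:**
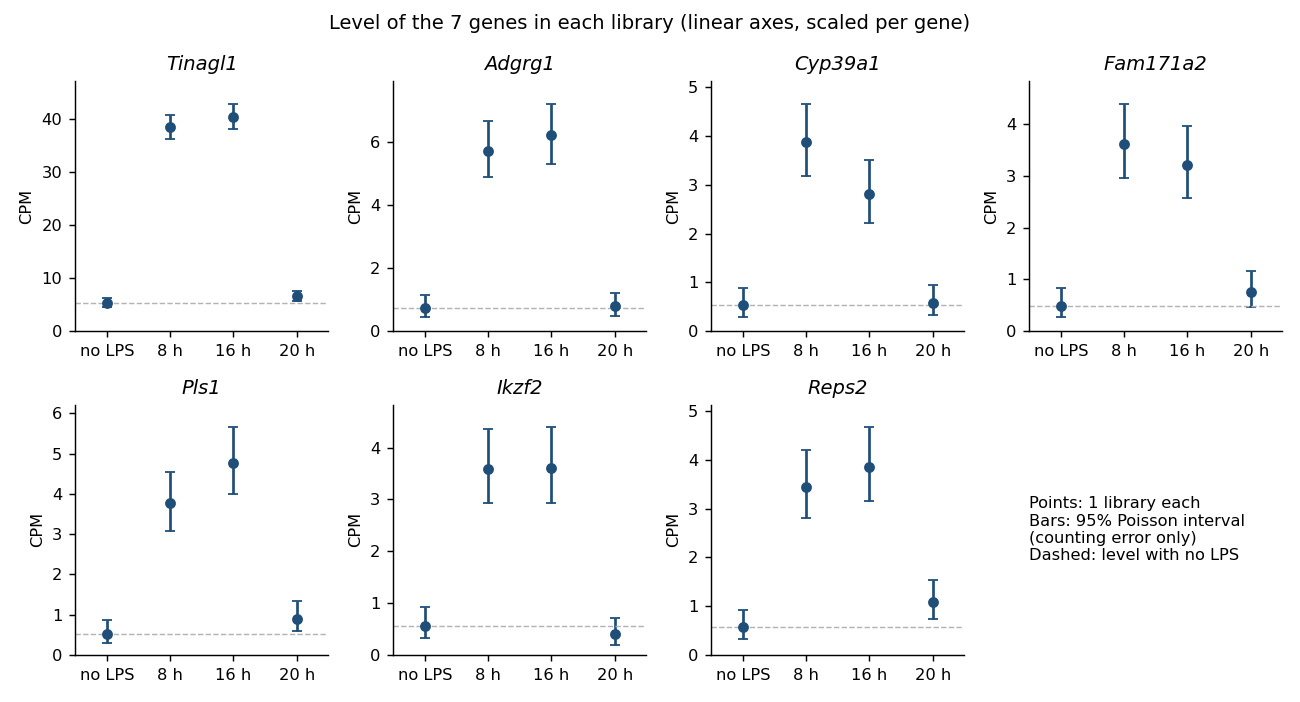
Level of each of the 7 genes (CPM, linear axes scaled per gene) in the no LPS, 8 h, 16 h and 20 h libraries, with exact Poisson 95% intervals, which cover counting error only. All 7 are high at 8 h and 16 h; Tinagl1 reaches 38.4 and 40.4 CPM there, and the other 6 stay between 2.82 and 6.21 CPM.

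A gene was called higher or lower between a pair of libraries when the fold of scaled counts was at least 2, its exact 95% counting interval excluded 1 and the higher library had at least 1 CPM. At 8 h against no LPS all 7 genes were called higher, beside 4.19% of the 11803 measured genes, and 0 lower, beside 4.13%. At 16 h against no LPS all 7 were again called higher, beside 4.13%, and 0 lower, beside 4.09%. Since these comparisons picked the genes, nothing is read from either count. Their median log2 ratio was 2.71 at 8 h and 2.63 at 16 h, beside 0.0041 and 0.0055 over all measured genes.

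Tinagl1 had the narrowest interval, at 7.24-fold (95% interval 6.10 to 8.64) at 8 h and 7.60-fold (6.41 to 9.08) at 16 h against no LPS. Adgrg1 stood at 7.69-fold (4.87 to 12.8) and 8.35-fold (5.30 to 13.8) at the same times. Fam171a2 was 7.31-fold (4.17 to 13.8) and 6.48-fold (3.67 to 12.3) higher. Across these matrix and membrane genes the intervals at both times overlapped. Cyp39a1 was 7.29-fold (4.23 to 13.5) higher at 8 h and 5.30-fold (3.03 to 9.93) higher at 16 h. Pls1 was 7.09-fold (4.11 to 13.1) higher at 8 h and 8.98-fold (5.25 to 16.5) higher at 16 h, which gave these genes of metabolism and the cytoskeleton the lowest and the highest 16 h fold of the 7. Reps2 was 6.09-fold (3.57 to 11.1) and 6.82-fold (4.01 to 12.4) higher, and Ikzf2 was 6.34-fold (3.72 to 11.5) and 6.38-fold (3.74 to 11.6) higher. The folds of all 7 fell within 6.09 to 7.69 at 8 h and within 5.30 to 8.98 at 16 h, and with 14 to 21 reads in the no LPS library for 6 of the genes their order is not fixed by these counts.

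Of 10338 genes with at least 100 reads in the highest library, 9954 were ranked, as model genes, clones and pseudogenes were skipped. The rank went by the smaller of the log2 ratios at 8 h and 16 h. Tinagl1 took rank 1 (2.84), Adgrg1 2 (2.83), Pls1 4 (2.67), Fam171a2 6 (2.53), Ikzf2 7 (2.52), Reps2 9 (2.47) and Cyp39a1 12 (2.26). Genes outside the 7 held the ranks between: Spns2, an exporter of sphingosine 1-phosphate, was rank 3 (2.80), Egr1, an immediate-early zinc finger factor, rank 5 (2.66), Ccn2, a secreted matricellular factor, rank 8 (2.48), Ankrd1, an ankyrin repeat protein, rank 10 (2.36) and Inpp4b, a phosphoinositide phosphatase, rank 11 (2.30). Tk1, the cytosolic thymidine kinase, just beyond Cyp39a1, was rank 13 (2.20). The 7 are thus among the steepest of the genes ranked, but not the steepest 7 by this measure. Fam171a2, Ikzf2 and Reps2 passed the cut of 100 reads narrowly, with 104, 103 and 107 reads in their highest library. Smad9, a measured gene that was not ranked, had a log2 ratio of 3.07 at 8 h against no LPS, above all 7. By the 16 h ratio alone Pls1 was rank 2 and Cyp39a1 rank 15.

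**Figure D2:**
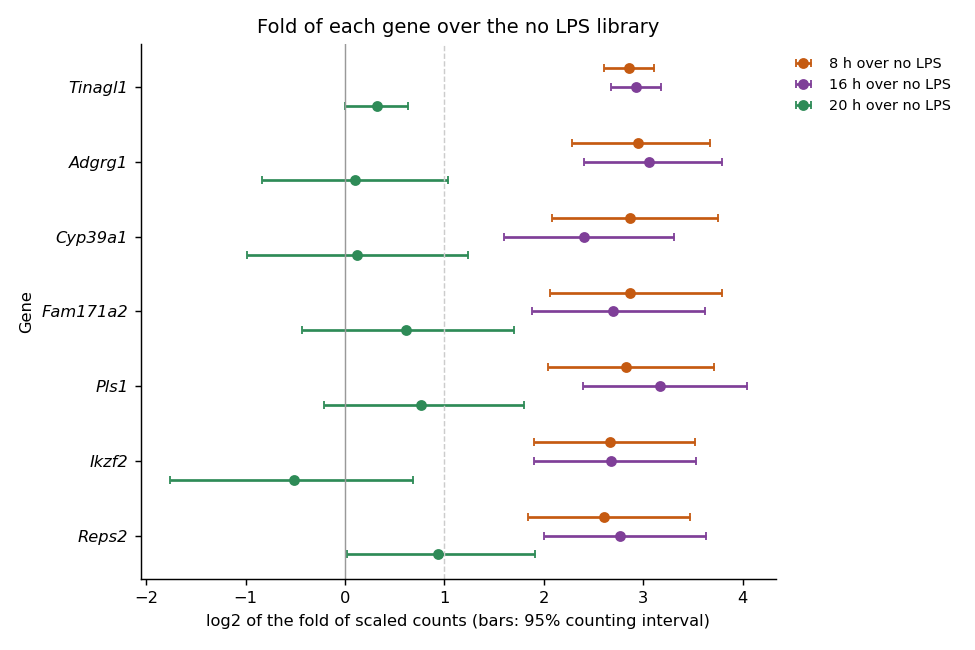
Fold of each of the 7 genes at 8 h, 16 h and 20 h against the no LPS library (log axis), with exact 95% counting intervals. The 8 h folds run from 6.09 to 7.69 and the 16 h folds from 5.30 to 8.98, while at 20 h all intervals but that of Reps2 include 1.

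At 16 h against 8 h, 0 of the 7 genes were called in either direction, beside 0.161% of measured genes called higher and 0.0763% called lower. Cyp39a1 was the exception in its interval: it was 1.37-fold lower at 16 h than at 8 h (fold 0.728, 95% interval 0.538 to 0.981). Pls1 pointed the other way, at 1.27-fold (0.975 to 1.65), with 1 inside its interval. The remaining 5 genes had folds of 0.887 to 1.12, all with intervals that include 1.

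At 20 h the level of each gene was closer to its no LPS level than to its 8 h or 16 h level. Against no LPS 0 of 7 were called, beside 0.551% of measured genes called higher and 0.102% called lower, but only Tinagl1 and Reps2 reached 1 CPM in either library, so the other 5 could not have been called; with no minimum level the count was still 0. Tinagl1 stood at 1.25-fold (0.998 to 1.56), Adgrg1 at 1.07-fold (0.561 to 2.04) and Cyp39a1 at 1.09-fold (0.504 to 2.36). Fam171a2 stood at 1.53-fold (0.742 to 3.25), Pls1 at 1.70-fold (0.862 to 3.47) and Ikzf2 at 0.702-fold (0.294 to 1.61). Reps2 was 1.91-fold higher (1.01 to 3.76), the 1 gene whose interval left out 1. The median log2 ratio of the 7 was 0.31, against -0.0023 over all measured genes, and the no LPS library is the same one that helped choose them. For the 6 genes besides Tinagl1 a difference of 2-fold from no LPS at 20 h lay inside the counting interval.

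Expressed as the part of the mean 8 h and 16 h increase in CPM still present at 20 h, the values were 3.82% for Tinagl1, 0.985% for Adgrg1, 1.67% for Cyp39a1, 9.0% for Fam171a2, 9.97% for Pls1, 16.7% for Reps2 and -5.57% for Ikzf2. Reps2 and Pls1 kept the most and Ikzf2 went below its no LPS level, by amounts that rest on 11 to 30 reads.

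At 20 h against 16 h all 7 genes were called lower, beside 3.85% of measured genes, and 0 higher, beside 4.63%. At 20 h against 8 h all 7 were likewise called lower, beside 3.90%, and 0 higher, beside 4.86%. These comparisons take in the libraries where the genes had been picked as high, so the counts lend no support. Ikzf2 had the widest gap, 9.09-fold lower at 20 h than at 16 h (95% interval 4.87 to 18.8), and Reps2 the narrowest, 3.56-fold lower (2.36 to 5.54). Tinagl1 was 6.11-fold lower (5.22 to 7.18) and Adgrg1 7.81-fold lower (5.0 to 12.8). Cyp39a1 was 4.87-fold, Fam171a2 4.24-fold and Pls1 5.28-fold lower. The pattern was not particular to these genes: of the 494 genes called higher at 8 h against no LPS, 343 (69.4%) were among the 454 called lower at 20 h against 16 h (75.6% of those), in a pair of comparisons with no library in common.

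**Figure D3:**
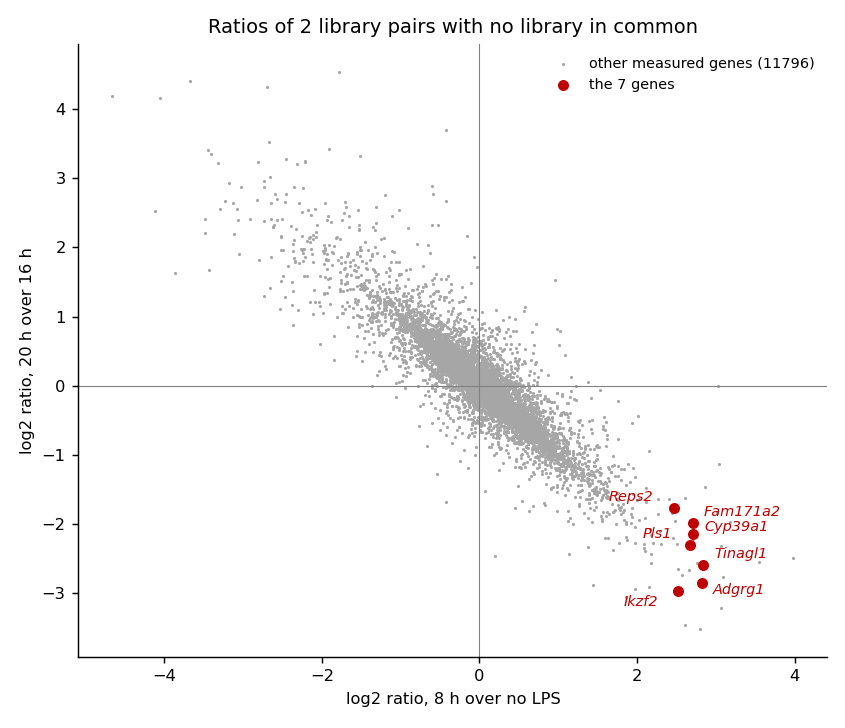
Log2 ratio of 8 h over no LPS (horizontal) against log2 ratio of 20 h over 16 h (vertical) for the 11803 measured genes, 2 comparisons with no library in common, with the 7 genes marked. The 7 lie at the lower right, with 8 h log2 ratios of 2.47 to 2.84 and 20 h over 16 h log2 ratios of -2.97 to -1.77.

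The mitochondrial share of reads and a few markers of other cells moved with or against the 7 genes, while most marker sums did not rise with them. Mitochondrial transcripts took 1.80%, 1.36%, 1.40% and 1.90% of reads in the no LPS, 8 h, 16 h and 20 h libraries, lowest where the 7 genes were highest. The 8 epithelial markers, 2 of them measured, summed to 51.6, 124, 126 and 52.1 CPM in that order, through Krt8 (371, 936, 900 and 391 reads) and Krt18 (1078, 2606, 2570 and 1045 reads), while Sftpb had 0 reads in all 4 libraries and Epcam 1 to 3. Their part in the values of the 7 genes was not tested. The 6 lymphoid markers, none of them measured, summed to 0.389, 0.104, 0.325 and 0.361 CPM, with Cd3e and Nkg7 at 0 in all libraries; Ptprc, which encodes CD45, had 42, 37, 31 and 38 reads. Macrophage markers were 6 of 7 measured (139, 117, 114 and 143 CPM summed), leukocyte markers 5 of 7 (7.11, 6.86, 7.51 and 8.02 CPM) and smooth muscle markers 1 of 5 (2.58, 2.19, 3.25 and 2.13 CPM). The macrophage sum was carried by Cd68 (2818, 1910, 1718 and 2675 reads), which was lower at 8 h and 16 h, while Adgre1 (12, 31, 77 and 24 reads) was called higher at 8 h (2.54-fold) and 16 h (6.55-fold) and Csf1r (9, 15, 30 and 26 reads) at 16 h (3.40-fold). The median log2 ratio of the macrophage markers was 0.40 at 8 h and 0.36 at 16 h, and their part in the values of the 7 genes was not tested either. In bulk libraries of this kind, fewer cells of a type and less RNA per cell cannot be told apart.

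The 7 genes lie on 7 different chromosomes and are all annotated as protein coding. In GENCODE M21 (build GRCm38, the build of mm10), Tinagl1 spans chr4:130164454-130175122 (- strand), Adgrg1 chr8:94974751-95014217 (+), Cyp39a1 chr17:43667425-43751431 (+), Fam171a2 chr11:102436981-102447682 (-), Pls1 chr9:95752642-95845311 (-), Ikzf2 chr1:69531214-69687245 (-) and Reps2 chrX:162411954-162643649 (-). Their exons cover 3053 bases in Cyp39a1 to 11613 in Ikzf2, in 8 (Fam171a2) to 22 (Adgrg1) exons. GC content of the longest transcript split them: Fam171a2 (66.8%), Tinagl1 (59.4%) and Adgrg1 (56.3%) were GC-rich, at percentiles 99.8, 94.9 and 84.0 of the measured genes, and the other 4 lay at 40.1% to 43.7%, at percentiles 6.23 to 19.4. The genes thus share neither length nor base composition.

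None of the counted genes overlapping or next to the 7 was called at 8 h or 16 h, several of them because they had few or no reads. Gm25783, which overlaps Cyp39a1, and Gm29114, which overlaps Ikzf2, had no counts and could not be called. Gm29114 lies on the opposite strand over 144 of the 11613 exonic bases of Ikzf2. Fam171a2 overlaps Grn, which encodes progranulin, on the opposite strand over 68 of its 3119 exonic bases. Grn had 8050 reads at 8 h against 6835 with no LPS, a fold of 1.16 with no call, and no source used here says whether reads were assigned by strand. Slc25a27 lies 211 bases from Cyp39a1 on the opposite strand and had 474 reads at 8 h, against 715 with no LPS (0.653-fold, no call). Hcrtr1 and Gm853 beside Tinagl1, and Erbb4 and Spag16 beside Ikzf2, had 0 reads in every library and can show no course. Trpc1 and Atr beside Pls1 stood at 1.08-fold and 0.818-fold at 8 h. Beside Reps2, Nhs had 7, 15, 18 and 17 reads in the no LPS, 8 h, 16 h and 20 h libraries, 2.11-fold and 2.62-fold at 8 h and 16 h but under 1 CPM throughout, and Rbbp7 was at 1.39-fold at 8 h. Adgrg3, 3475 bases beyond Adgrg1 on the same strand, had 1, 13, 11 and 1 reads in the no LPS, 8 h, 16 h and 20 h libraries, never reaching 1 CPM; its 8 h fold of 12.8 has a counting interval of 1.92 to 544. Adgrg5, on the other side of Adgrg1, had 0, 1, 2 and 0 reads.

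Promoter sequences, from 250 bases before to 50 after the start site, are shown for the start sites of the genes that RefSeq's GRCm38.p6 table holds, so that the letters upstream of genes with the same time course can be compared. Entries were found for 4 of the 7 genes, 7 entries in all (2 each for Tinagl1, Adgrg1 and Reps2, and 1 for Pls1), and none for Cyp39a1, Fam171a2 or Ikzf2. One entry per gene is printed, plus the second Adgrg1 entry, which was added after its matches were seen. Capitals mark matches on either strand to GGGCGG (the GC box), GCGNGGGCG (EGR) or TGANTCA (AP-1), and no matches shown overlap.
Tinagl1, chr4:130175073-130175372, - strand: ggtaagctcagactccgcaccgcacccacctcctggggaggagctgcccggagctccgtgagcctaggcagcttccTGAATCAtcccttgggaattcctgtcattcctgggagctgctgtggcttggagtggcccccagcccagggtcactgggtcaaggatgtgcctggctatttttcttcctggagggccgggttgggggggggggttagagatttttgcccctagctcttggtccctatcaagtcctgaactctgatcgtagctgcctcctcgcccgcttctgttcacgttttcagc
Adgrg1, first start, chr8:94976859-94977158, + strand: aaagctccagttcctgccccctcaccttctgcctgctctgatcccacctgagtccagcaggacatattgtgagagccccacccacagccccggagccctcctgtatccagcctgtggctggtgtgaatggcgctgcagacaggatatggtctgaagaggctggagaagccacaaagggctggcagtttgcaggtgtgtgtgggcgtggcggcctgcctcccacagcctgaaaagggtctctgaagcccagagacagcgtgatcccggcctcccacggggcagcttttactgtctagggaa
Adgrg1, second start, chr8:94984149-94984448, + strand: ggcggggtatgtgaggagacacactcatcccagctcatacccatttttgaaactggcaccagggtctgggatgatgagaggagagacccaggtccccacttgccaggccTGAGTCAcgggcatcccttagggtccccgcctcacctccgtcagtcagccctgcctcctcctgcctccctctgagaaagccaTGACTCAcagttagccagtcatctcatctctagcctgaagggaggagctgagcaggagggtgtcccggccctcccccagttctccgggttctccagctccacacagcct
Pls1, chr9:95845230-95845529, - strand: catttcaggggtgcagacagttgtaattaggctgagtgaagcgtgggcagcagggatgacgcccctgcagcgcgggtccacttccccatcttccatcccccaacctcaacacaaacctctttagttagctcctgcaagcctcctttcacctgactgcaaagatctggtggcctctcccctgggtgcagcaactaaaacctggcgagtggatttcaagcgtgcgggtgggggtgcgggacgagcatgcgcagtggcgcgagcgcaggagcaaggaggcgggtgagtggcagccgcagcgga
Reps2, chrX:162643609-162643908, - strand: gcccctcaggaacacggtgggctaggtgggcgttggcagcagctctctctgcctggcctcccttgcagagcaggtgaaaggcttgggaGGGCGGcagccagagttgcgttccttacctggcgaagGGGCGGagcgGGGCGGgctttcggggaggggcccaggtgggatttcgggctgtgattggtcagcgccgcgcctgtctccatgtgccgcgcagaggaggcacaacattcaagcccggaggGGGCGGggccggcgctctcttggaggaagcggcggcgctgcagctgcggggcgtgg

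None of the 3 marked motifs was found in every promoter. Counting the start site as 0, the Tinagl1 promoter held 1 AP-1 match, TGAATCA at -174, and the second Adgrg1 promoter held TGAGTCA at -141 and TGACTCA at -59. The Reps2 promoter held 4 GC boxes, at -162, -125, -115 and -6, and no AP-1 match. The second Tinagl1 entry, which is not printed, also held 4 GC boxes, at -82, -53, -35 and -16, and no AP-1 match. The first Adgrg1 promoter and the Pls1 promoter held none of the 3 motifs. Of all 32851 promoters in the table, 35.7% held a GC box, 5.55% an EGR match and 7.81% an AP-1 match; of the 7 entries, 2, 0 and 2 did. The remaining motifs searched were CCAAT (37.4% of all promoters, 1 of 7 entries), TATAAA (13.6%, 1 of 7), the E box CANNTG (72.3%, 6 of 7), the TEAD motif GGAATG (14.7%, 1 of 7) and the STAT motif TTCNNNGAA (8.30%, 0 of 7). A match describes the letters only, and says nothing of whether a factor was bound.

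Within the plastin, REPS, FAM171, Ikaros and adhesion receptor families, a relative of each gene was more abundant at all times. Levels between genes are given as RPKM, the CPM divided by kilobases of exon. Pls1 had 0.136, 0.967, 1.22 and 0.232 RPKM in the no LPS, 8 h, 16 h and 20 h libraries, against 51.8, 42.7, 41.8 and 48.6 RPKM for Pls3, the widely expressed plastin, and 0.294, 0.246, 0.292 and 0.270 RPKM for Lcp1, the leukocyte plastin. Pls1 thereby made up 0.261%, 2.20%, 2.83% and 0.473% of plastin RPKM, passing Lcp1 at 8 h and 16 h and Pls3 at no time. Reps2 had 0.0682, 0.416, 0.466 and 0.131 RPKM, and its relative Reps1 had 19.3, 21.0, 21.8 and 18.0 RPKM, with no call.

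Fam171a2 had 0.159, 1.16, 1.03 and 0.243 RPKM. Fam171a1 had 16.0, 26.5, 25.3 and 16.1 RPKM, a smaller change in the same direction (1.66-fold at 8 h, no call), and Fam171b had 61.8, 45.8, 46.5 and 59.6 RPKM, in the opposite direction and also with no call. Ikzf2 had 0.0487, 0.309, 0.311 and 0.0342 RPKM, below Ikzf5 at 3.52, 3.79, 3.72 and 3.25 RPKM. The Ikaros genes of lymphocytes were barely seen: Ikzf1 had 3 to 5 reads and Ikzf3 had 0 in every library. Tinag, the relative of Tinagl1, also had 0 reads in all 4 libraries, which allows up to 0.108 CPM, whereas Tinagl1 had 1.22, 8.82, 9.26 and 1.52 RPKM. Adgrg1 had 0.137, 1.05, 1.15 and 0.147 RPKM, against 16.4, 25.6, 24.3 and 19.5 RPKM for Adgra2, the most abundant adhesion receptor listed.

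**Figure D4:**
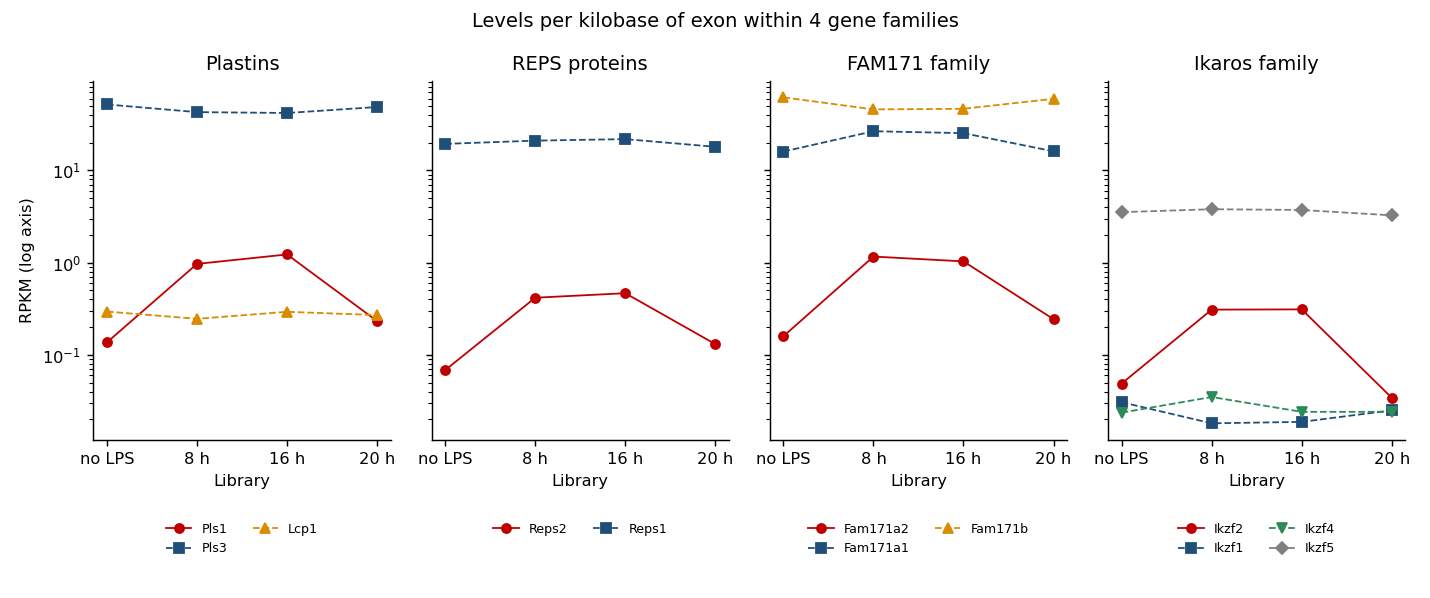
Levels of Pls1, Reps2, Fam171a2 and Ikzf2 and their relatives (RPKM, log axis) in the no LPS, 8 h, 16 h and 20 h libraries; genes with 0 reads are not drawn. Pls1 moves between 0.136 and 1.22 RPKM and stays under Pls3 (41.8 to 51.8 RPKM), and Reps2 stays under Reps1 (18.0 to 21.8 RPKM).

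The lists of pathway partners drawn up for each gene held 94 measured genes besides the 7. At 8 h 4 of them (4.26%) were called higher and 3 (3.19%) lower, near the 4.19% and 4.13% of all measured genes. At 16 h 2 (2.13%) were called higher and 4 (4.26%) lower, beside 4.13% and 4.09%, so the counts below show nothing particular to these lists. Among the adhesion receptors and other genes listed with Adgrg1, 14 were measured. Of these, at 8 h and again at 16 h, 1 was called higher, the latrophilin Adgrl1 (2.95-fold at 8 h, 95% interval 2.5 to 3.49), and 1 lower, Col3a1, which encodes the collagen that Adgrg1 binds (0.488-fold, 0.465 to 0.513). The most abundant per length with no LPS, Arhgef11 and Gna12, were at 0.945-fold and 0.903-fold at 8 h. Of 16 matrix genes, cathepsins and integrins listed with Tinagl1, 1 was called higher at 8 h, the basement membrane collagen Col4a2 (2.01-fold, 1.96 to 2.07), and 0 at 16 h, where Col4a2 was 1.99-fold higher, just under the threshold. Ctsl and Itgb1, the most abundant there, were at 0.915-fold and 1.13-fold at 8 h.

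Of the 9 other measured genes in the oxysterol and bile acid list of Cyp39a1, 0 were called higher at either time, beside 4.19% and 4.13% of all measured genes; Amacr, a racemase of bile acid side-chain oxidation, was called lower at 8 h (0.499-fold), and Nr1h3 (LXR alpha, an oxysterol receptor; 0.471-fold) and Rora (a nuclear receptor; 0.411-fold) at 16 h. Their median log2 ratio was -0.17 at 8 h and -0.36 at 16 h. Of the 15 microvillus and actin-bundling genes listed with Pls1, Vill, a villin-like gene, was called higher at 8 h (2.83-fold, 2.02 to 4.02) and missed the threshold at 16 h (1.998-fold, 1.40 to 2.89), and Espnl, an espin-like gene, was called lower at both times (0.319-fold and 0.377-fold). Ezr and Msn, which link membrane to actin, were the most abundant and stood at 1.68-fold and 1.12-fold at 8 h with no call.

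Of 16 Ikaros and NuRD genes listed with Ikzf2, 0 were called at 8 h, 16 h or 20 h, and Rbbp7 and Mta1, the most abundant, stood at 1.39-fold and 1.01-fold at 8 h. Of 23 endocytosis genes listed with Reps2, 1 was called higher at 8 h and at 16 h, the clathrin light chain gene Cltb (2.92-fold, 2.54 to 3.36, and 3.02-fold, 2.63 to 3.48). The other clathrin genes Cltc and Clta were at 1.08-fold and 0.913-fold at 8 h. The 2 other FAM171 genes were not called. The median log2 ratios at 8 h of the 5 lists besides the oxysterol and FAM171 lists were 0.15 to 0.23 without the 7 genes, beside 0.0041 over all measured genes. At 20 h 1 gene of all these lists was called, Myo1a, a brush border myosin, which was lower (0.441-fold, 0.229 to 0.813).

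The genes outside the 7 whose course was most like theirs were named by the Euclidean distance of centred log2 profiles over the 4 libraries from the median profile of the 7. The list depends on this measure: ranking by Pearson correlation instead named 6 genes of which 0 were shared with it. Egr1 came first at a distance of 0.183, with 257, 1658, 1666 and 261 reads in the no LPS, 8 h, 16 h and 20 h libraries. Ankrd1 followed at 0.348 (87, 511, 445 and 89 reads), then Inpp4b at 0.418 (282, 1420, 1391 and 282 reads), Ccn2 at 0.472 (32, 191, 185 and 46 reads), Tk1 at 0.488 (356, 1672, 1663 and 341 reads) and Syngr3 at 0.503 (43, 222, 200 and 45 reads). The 7 genes themselves ran from 0.0666 for Tinagl1 to 0.678 for Reps2, so all 6 outsiders were nearer to the median profile than Ikzf2 (0.538) and Reps2. With 4 libraries in 2 close pairs, such likeness rests on few independent values.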

How the data were processed

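RNA-seq of polyA RNA was deposited as 1 table of whole-number counts per gene, 1 column per library. The authors used STAR, featureCounts and build mm10, as the submitters' processing notes list them. The sources used here do not give versions, settings, annotation, strand handling or the treatment of multi-mapping reads. Columns were matched to samples by title.

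Symbols and coordinates came from GENCODE M21 by stable gene ID, for 38872 of 39056 IDs (99.5%) and all 7 genes. Counts were scaled with edgeR 4.0.16 TMM factors from all 4 libraries, and CPM and RPKM use these totals. Where a gene had 0 reads, the level allowed is that of 3 reads, 0.104 to 0.108 CPM. Folds carry exact conditional binomial (Clopper-Pearson) 95% intervals and CPM values exact Poisson intervals. Both cover counting error only, since each group is 1 library. Reads also have no molecular identifiers. Log2 ratios used a prior count of 2. Genes with at least 1 CPM in at least 1 library (11803) were counted as measured. With 1 library per group there was no test and no p-value. The scripts' intervals and calls were tested on simulated counts. Python 3.11.15 and scipy 1.17.1 were used.

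The 7 genes, the gene lists, the markers and the rules were chosen with earlier results of these data known. Genes named besides the 7 were the 6 next in rank by the smaller log2 ratio, the 6 nearest profiles, overlapping and neighbouring genes, called and the 2 most abundant genes of each list, and S1pr1, Pecam1, Cdh5 and Ptprc as checks of the labels (Cdh5 had 5, 6, 6 and 9 reads in the no LPS, 8 h, 16 h and 20 h libraries). Model genes, clones and pseudogenes were skipped in rankings. Other family members and markers, Smad9 and Cyp46a1 were named after their values were seen. Some listed genes are not reported here. The alternatives were scaling by library size, DESeq2 1.42.0 size factors or upper quartiles, other minimum levels, folds, interval levels and prior counts, thinned libraries, and a correction for GC content and length.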

Additional observations from a re-analysis of the deposited data

Results flagged for a closer look

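Ikzf2 drew attention because its 20 h value lay on the other side of no LPS from its 8 h and 16 h values. Its log2 ratio was -0.44 at 20 h against no LPS (11 reads against 16), while it was 2.52 at 8 h and 2.53 at 16 h. The difference was not tested, as each group is 1 library, and the counting interval of the 20 h fold, 0.294 to 1.61, includes 1.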

How the results depend on the processing

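With 1 library per group, leaving out a replicate was not possible, and no paired analysis was possible because each group has 1 library. None of the 378 member folds recomputed under other settings left its counting interval or changed direction. Under a minimum of 10 CPM, 1 of the 7 genes, Tinagl1, remained called at 8 h and at 16 h against no LPS, at 20 h against 16 h and at 20 h against 8 h, because the other 6 never reach that level. At a fold of 4, Reps2 was no longer called lower at 20 h. Over all genes, calls numbered 981 (8 h against no LPS), 971 (16 h against no LPS), 77 (20 h against no LPS), 28 (16 h against 8 h), 1000 (20 h against 16 h) and 1034 (20 h against 8 h). In that order they were 332, 332, 22, 0, 357 and 364 at a minimum of 10 CPM and 187, 178, 9, 2, 184 and 200 at a fold of 4. With no minimum they were 1484 at 16 h against no LPS, 216 at 20 h against no LPS and 172 at 16 h against 8 h; with a stricter counting interval they were 40 at 20 h against no LPS and 4 at 16 h against 8 h. Correction for GC content and length gave 57.7% of the calls at 16 h against 8 h as higher, beside 67.9% without it. Ranking by Pearson correlation named 6 other nearest genes (0 shared). With the longest transcript as length, 8 h levels were 18.4 RPKM for Tinagl1, 1.58 for Adgrg1 and 0.387 for Ikzf2. Counts of 11 to 30 reads at 20 h limit the precision of 6 of the genes.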
